A study of Mus musculus with 10 samples.

Results

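The expression of the TNF superfamily was followed in the cortex of kidney from 4 sham mice and 6 mice with aristolochic acid nephropathy (AAN), a model of tubular injury and fibrosis caused by a plant toxin. The set held every gene whose mouse symbol begins with Tnfsf, Tnfrsf or Tnfaip, the genes Traf1 to Traf7, and Tnf, Lta, Ltb, Ltbr, Cd40, Cd40lg, Cd27, Cd70, Fas, Fasl, Eda and Edar. This gave 60 of the 21792 genes with values: 18 ligands, 25 receptors, 7 TRAF adaptors, 8 genes named as TNF-induced proteins and 2 further transcripts of the Tnfsf12-Tnfsf13 locus. All mice were wild-type C57BL/6 males of 8 weeks that received an intraperitoneal injection and were studied at day 28. The AAN mice had been given aristolochic acid at 5 mg/kg and the sham mice the same amount of its solvent, PBS. RNA-seq values were given per mouse as FPKM, fragment numbers scaled to transcript length and to library size, so levels of different genes can be set side by side per length. Depth read back from the steps between low FPKM values was 15.8 to 17.5 M fragments for the sham libraries and 13.4 to 16.5 M for the AAN libraries. Mice are given by group and label tag. Sham values are always in the order B607, B634, B636 and H249.

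Most TNF superfamily ligands are membrane proteins that assemble in threes and act on the surface of a neighbouring cell or after they are cut off as soluble factors. Their receptors gather TRAF adaptors and ubiquitin ligases, which switch on the NF-kB and JNK pathways, and the receptors with a death domain can also start caspase-driven death or necroptosis. In the kidney, tubular cells carry receptors for TNF, for the TWEAK ligand encoded by Tnfsf12 and for Fas ligand, while many of the other ligands and receptors are best known from T cells, B cells and myeloid cells.

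Most of the members that could be tested were higher in AAN mice. Of the 55 members that averaged 0.1 FPKM or more in the 10 mice, 44 rose past both limits (adjusted p up to 0.05 and a 2-fold change or more), 0 fell and 11 passed neither or only 1 limit. Of the 55, 12 passed this filter on low values although their sham mean was under it, and such members could pass it only by being high in AAN mice. Of these 12, 10 were among the 44, as were 34 of the other 43. Among all 17129 genes tested, 35.8% rose past the same limits and 3.43% fell. That share was not split by the sham mean, so it does not match the 12 or the 43 taken alone. The median log2 fold change of the members was 2.23, against 0.75 for all genes tested. The values as deposited were thus shifted upward in AAN mice as a whole. After rescaling each mouse by the median of its ratios to the mean profile, a scaling that moved the median of all genes to 0.06, 35 members rose and 1 fell (19% and 10.5% of all genes), and the members' median was 1.55. Quantile normalization moved the median of all genes to -0.10 and left 31 members higher and 1 lower, against 14.9% and 11.6% of all genes. Among all genes called, the share that rose was 91.2% as deposited, 64.4% after the median of ratios and 56.1% after quantile normalization. The same 30 members rose under all 3 scalings. The share of all genes that did so was not counted, and can be no higher than the 14.9% of quantile normalization. The calls of Tnfaip1, Tnfaip2, Traf2, Traf5, Traf7, Tnfsf10, Tnfsf12, Fas and Tnfrsf22 were lost after the median of ratios. Quantile normalization ended all of these but that of Tnfsf12, and in addition those of Tnfaip3 (0.90), Tnfsf13 (0.74), Tnfsf15 (1.0), Tnfrsf11a (0.65) and Tnfrsf13b (1.74). By the adjusted p alone, 48 members were higher and 1, Tnfaip8, was lower, against 55.4% and 6% of all genes.

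The number of members that were measurable at all differed between the groups. At least 1 FPKM was reached by 16 to 17 members in each sham mouse and by 39 to 45 in each AAN mouse. Values above 0 were listed for 46 to 52 members in sham mice and for 58 to 60 in AAN mice. More of all 21792 genes were above 0 with AAN as well, while the number of all genes at 1 FPKM or more was not counted. Each sham library had 16690 to 17639 genes above 0, and each AAN library had 19158 to 19636. For 49 of the 60 members, and 47 of the 55 tested, every AAN mouse lay above every sham mouse, a separation seen in 40.3% of all genes tested. The 5 members under the filter were Tnfaip6, Eda, Tnfsf4, Tnfsf18 and Tnfrsf13c.

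**Figure D1:**
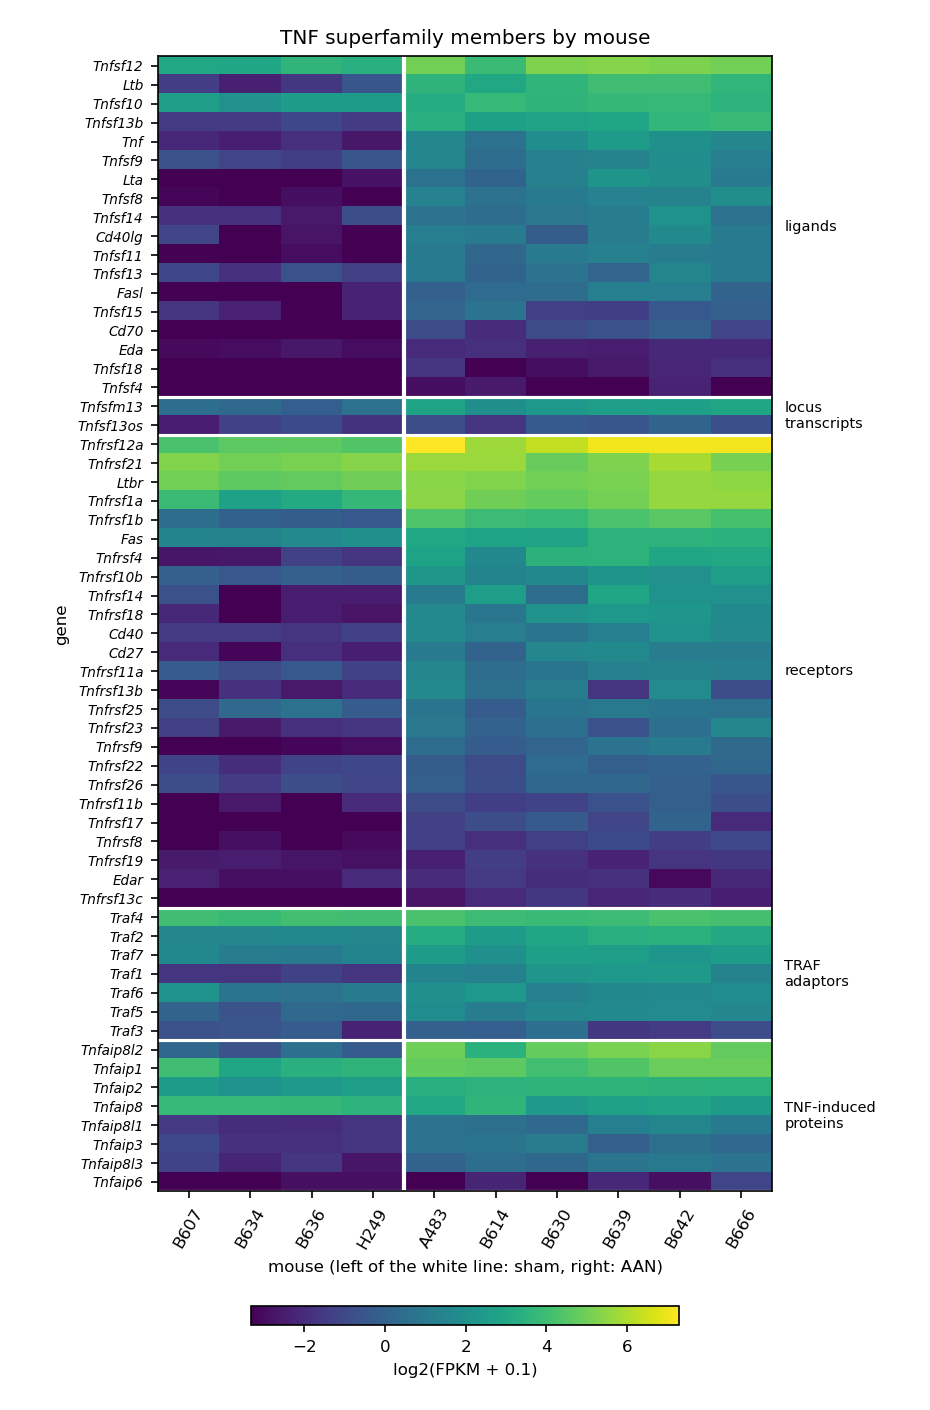
Level of the 60 members in each mouse as log2(FPKM + 0.1), 1 row per gene grouped by role and 1 column per mouse, with the 4 sham mice left of the white line and the 6 AAN mice right of it. Ligands and receptors that are dark (near 0 FPKM) in sham mice are brighter in AAN mice, Tnfrsf12a is the brightest gene of the AAN mice, and Tnfaip8 is darker in most of them.

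The samples were whole tissue, so more or fewer cells of a type and more or less RNA per cell cannot be told apart in any of these values. Markers of immune cells moved with the members. All 6 of 6 leukocyte markers rose: their summed level was 7.89 to 13.8 FPKM in sham mice and 131 to 412 FPKM in AAN mice. The 8 of 8 macrophage markers that rose summed to 38.3 to 61.3 and 624 to 2167 FPKM, and the 9 of 9 T cell markers to 1.20 to 5.32 and 107 to 268 FPKM. The most abundant of these markers were Cd52, C1qa and Trac. The 4 of 5 tested B cell markers that rose summed with their list to 0.799 to 1.39 and 4.25 to 10.1 FPKM, with Cd79b the most abundant and Blk listed at 0 in every sham mouse. Plasma cell markers (5 of 6 higher, the exception being the most abundant, Xbp1) summed to 26.4 to 48.0 and 60.2 to 139 FPKM, and natural killer cell markers (4 of 5 higher, most abundant Nkg7) to 0.995 to 1.78 and 13.9 to 43.9 FPKM. Dendritic cell markers (6 of 6 higher, most abundant Cd209a) summed to 0.969 to 3.07 and 21.5 to 43.7 FPKM. Neutrophil markers (2 of 2 tested higher, most abundant S100a9) reached 0 to 1.81 and 0.871 to 8.62 FPKM, with Ly6g listed at 0 in every sham mouse and under the filter. Camp, Elane and Mpo of the same list had no values, and the groups overlapped for both tested markers, S100a8 and S100a9. The part of these cells in the rise of the members was not tested.

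Resident cell markers moved too. Injured tubule markers (8 of 8 higher, most abundant Spp1) summed to 189 to 299 FPKM in sham mice and 1511 to 3831 FPKM in AAN mice, and fibroblast markers (7 of 7 higher, most abundant Col1a1) to 14.2 to 19.2 and 102 to 231 FPKM. The proximal tubule list, which checks the labelled tissue, was abundant in both groups and fell in 6 of 8 genes, from 1972 to 3928 FPKM to 522 to 2031 FPKM, with Slc34a1 the most abundant. Distal nephron and collecting duct markers fell in 2 of 7, Pvalb and Slc4a1 (304 to 625 and 175 to 816 FPKM, most abundant Slc12a3), and podocyte markers rose in 1 of 5, Synpo (43.1 to 83.7 and 47.5 to 126 FPKM, most abundant Podxl). None of the 6 endothelial markers (26.9 to 46 and 40.5 to 58.4 FPKM, most abundant Cdh5) and none of the 4 thick limb markers (407 to 1581 and 179 to 1821 FPKM, most abundant Umod) passed both limits. These counts are as deposited. After the median of ratios 7 of 8 proximal tubule, 4 of 7 distal, 1 of 6 endothelial (Kdr) and 1 of 4 thick limb markers (Umod) fell and 0 of 5 podocyte markers rose, and among the immune lists 5 of 6 leukocyte, 4 of 6 plasma cell and 1 of 2 neutrophil markers rose, with the other lists as before. Mitochondrial transcripts took 39.5 to 61.4% of the summed FPKM of sham mice and 21.4 to 55% of that of AAN mice. A rescaling that left them out kept the count of members that rose at 44. All genes stayed shifted upward as well, with 6274 of 17129 higher and 555 lower.

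The sequence upstream of the members was read because so many of them rose together. NF-kB, the pathway downstream of their receptors, binds decamers in DNA, and a simple pattern of 10 bases was searched. RefSeq promoter windows (GRCm38.p6, 250 bases before to 50 bases after a start) were found for 48 of the 60 members, in 53 windows, and were searched on both strands for GGG, any 2 bases and TTTCC, 10 bases in a row. This decamer occurred in 6 of the 53 windows (11.3%), against 535 of 32851 windows of all genes (1.63%). The members with a match were Ltb, Tnfaip3, Tnfrsf9 and Traf2, which rose, and Traf3 and Tnfrsf25, which did not pass both limits. A match describes these letters only and is no evidence of a bound site, and the pattern is not the full range of decamers that NF-kB binds. Below, 3 members that rose are shown beside Traf3, which holds the same decamer as Tnfrsf9 directly at its start, each as the 150 bases 5′ to 3′ up to the base before the start on the gene's strand, with the match in capitals.
Ltb, chr17:35194357-35194506, plus strand: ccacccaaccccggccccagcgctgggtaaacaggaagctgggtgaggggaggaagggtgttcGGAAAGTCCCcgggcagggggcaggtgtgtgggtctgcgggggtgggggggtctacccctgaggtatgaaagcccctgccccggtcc
Tnfaip3, chr10:19015411-19015560, minus strand: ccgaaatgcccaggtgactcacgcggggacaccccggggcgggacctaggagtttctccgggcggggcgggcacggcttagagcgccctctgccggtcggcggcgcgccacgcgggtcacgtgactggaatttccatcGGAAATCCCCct
Tnfrsf9, chr4:150927849-150927998, plus strand: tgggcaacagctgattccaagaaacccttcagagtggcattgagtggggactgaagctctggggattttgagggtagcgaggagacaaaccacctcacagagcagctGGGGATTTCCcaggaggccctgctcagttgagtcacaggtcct
Traf3, chr12:111166220-111166369, plus strand: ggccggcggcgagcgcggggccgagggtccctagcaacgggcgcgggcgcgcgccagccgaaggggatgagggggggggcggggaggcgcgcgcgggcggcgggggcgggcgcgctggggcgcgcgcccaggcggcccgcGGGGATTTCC

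The match began 87 bases before the start in Ltb, 43 in Tnfrsf9 (in the second of its 2 windows), 12 in Tnfaip3 and 10 in Traf3. In Ltb and Tnfaip3 it lay on the strand opposite to the gene. These 4 genes differed in level in the tissue: Ltb averaged 12.9 FPKM in AAN mice, Tnfaip3 1.43, Tnfrsf9 1.27 and Traf3 0.664.

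Of the 18 ligands, 15 were tested and all 15 rose (all genes 35.8%), 13 of them also after the median of ratios (all genes 19%). The filter set part of this count: Cd70, Fasl, Lta, Tnfsf11 and Tnfsf8 reached it only through the AAN mice, and Eda, Tnfsf4 and Tnfsf18 did not reach it. The other 10 tested ligands had a sham mean above the filter. The 3 ligand genes of the lymphotoxin locus on chromosome 17, Ltb, Tnf and Lta, lie within 10.9 kb. Ltb (chr17:35194439-35196320, plus strand, GRCm38 as in GENCODE M21) encodes the membrane anchor of the lymphotoxin heterotrimer, which acts on Ltbr. Its level was 0.279, 0.0906, 0.227 and 0.610 FPKM in the sham mice, and from 7.99 to 16.5 FPKM (median 12.4) in the AAN mice. The groups were far apart. With 0.1 FPKM added to each value as a pseudocount, the log2 fold change of 5.14 (SE 0.33, adjusted p = 2.41e-07) was the largest among the members. With a pseudocount of 0.01 the largest was that of Lta (7.16, Ltb 5.62), and with 1 that of Tnfaip8l2 (3.86, Ltb 3.40). Tnf (chr17:35199381-35202007, minus strand), the founding cytokine of the family, measured 0.131, 0.0829, 0.179 and 0.0597 FPKM in sham mice and 1.48 to 5.54 FPKM (median 3.21) in AAN mice. Lta (chr17:35203165-35205351, minus strand), which forms soluble lymphotoxin and the other chain of the heterotrimer, was listed at 0 in B607, B634 and B636, at 0.0439 FPKM in H249, and at 0.967 to 4.37 FPKM (median 2.16) in AAN mice. For Lta, that is 1 fragment in all 4 sham mice together and 21 to 81 fragments in each AAN mouse. Tnf changed by 3.95 (SE 0.32) and Lta by 4.38 (SE 0.37) on the log2 scale, and for all 3 genes no AAN mouse came near the sham range. The AAN mouse B614 was the lowest of its group in all 3.

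The next ligands are known from the survival and costimulation of lymphocytes. Tnfsf13b (chr8:10006467-10039072, plus strand) encodes BAFF, the survival factor of B cells. It measured 0.246, 0.271, 0.392 and 0.261 FPKM in sham mice and 6.51 to 14.4 FPKM (median 8.96) in AAN mice, a log2 change of 4.6 (SE 0.25). Tnfsf8, the ligand of CD30, was at 0.0150, 0, 0.0319 and 0 FPKM in sham mice and at 1.47 to 3.69 FPKM (median 2.49) in AAN mice. In fragments, the 4 sham mice together held 3 of Tnfsf8, against 88 to 228 in each AAN mouse. Cd40lg, the T cell ligand of CD40, was at 0.365, 0, 0.0486 and 0 FPKM in sham mice and 0.774 to 3.14 FPKM (median 2.08) in AAN mice. Here B607 stood well above the other sham mice but still below the lowest AAN mouse. Tnfsf9, which encodes the ligand of 4-1BB, was higher in sham mice to begin with (0.511, 0.359, 0.296 and 0.592 FPKM) and reached 1.29 to 3.55 FPKM (median 2.48) in AAN mice. Tnfsf14, or LIGHT, a ligand of Ltbr and of the receptor encoded by Tnfrsf14, measured 0.184, 0.170, 0.0654 and 0.489 FPKM in sham mice and 1.3 to 4.09 FPKM (median 1.67) in AAN mice. The groups did not overlap in either gene, and the log2 changes were 2.23 (SE 0.27) for Tnfsf9 and 2.77 (SE 0.38) for Tnfsf14. Tnfsf9 overlaps the gene Gm11110 in the annotation, so its reads are less certain.

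Tnfsf11, or RANKL, the ligand that drives osteoclast formation, was listed at 0 in 3 sham mice and at 0.0272 FPKM in B636, which is 1 fragment. In the AAN mice it measured 1.03 to 2.34 FPKM (median 1.99), or 36 to 73 fragments, and its log2 change was 4.18 (SE 0.24). The fitted changes of genes with so few fragments in sham mice rise or fall with the pseudocount of 0.1 FPKM: for Tnfsf11 the value was 1.5 with a pseudocount of 1 and 7.05 with 0.01, and for Lta 1.69 and 7.16.

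Of the ligands, 2 averaged at least 1 FPKM in sham mice. Tnfsf12 (chr11:69686250-69695849, minus strand), which encodes TWEAK, was at 7.96, 7.65, 12.2 and 10.1 FPKM in sham mice and at 14.8 to 40.6 FPKM (median 34.5) in AAN mice, making it the most abundant ligand in both groups. Its log2 change was 1.72 (SE 0.27) as deposited but 0.96 after the median of ratios, just under the limit of 1. Tnfsf10, or TRAIL, a ligand of death receptors, measured 5.92, 3.98, 5.69 and 5.54 FPKM in sham mice and 9.39 to 13.8 FPKM (median 12.5) in AAN mice. The change of Tnfsf10 was 1.20 (SE 0.17), and only 0.45 after the median of ratios, which ended its call. Unlike most ligands, Tnfsf10 had its highest AAN value in B614.

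The Tnfsf12-Tnfsf13 locus on chromosome 11 also gives a readthrough transcript, listed as Tnfsfm13, and an antisense RNA, Tnfsf13os. Tnfsfm13 was at 1.32, 1.13, 0.788 and 1.46 FPKM in sham mice and 3.81 to 7.72 FPKM (median 6.04) in AAN mice, without overlap. Tnfsf13 itself, which encodes APRIL, changed by 1.98 (SE 0.33), whereas Tnfsf13os changed by 0.96 (SE 0.38, adjusted p = 0.0471), below 2-fold and with overlapping groups. These 4 genes share sequence, and the use of strand in the counting is not stated in the sources used here, so the split of reads among them is uncertain.

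Of the remaining ligands, Cd70 was listed at 0 in all 4 sham mice and at 0.151 to 0.828 FPKM (median 0.446) in AAN mice. A 0 allows up to 3 fragments, or 0.204 to 0.225 FPKM in the sham mice. Against that level the rise of Cd70 was at least 0.73 on the log2(FPKM + 0.1) scale, so that its place among the genes past 2-fold rests on the zeros. Fasl, the death ligand of cytotoxic lymphocytes, was listed at 0 in 3 sham mice, at 0.104 FPKM in H249, and at 0.855 to 2.26 FPKM (median 1.24) in AAN mice. Tnfsf15 changed by 2.04 (SE 0.44). The partners of 2 receptors described below stayed near 0: Tnfsf4, the OX40 ligand, was listed at 0 in all sham mice and at 0 to 0.103 FPKM (median 0.0165) in AAN mice, and Tnfsf18, the GITR ligand, at 0 and at 0 to 0.206 FPKM (median 0.0975). In fragments, no AAN mouse held more than 3 of Tnfsf4 or 7 of Tnfsf18. Eda, the ectodysplasin ligand, also stayed below the filter, at 0.0207 to 0.0586 FPKM in sham mice and 0.0810 to 0.173 FPKM in AAN mice.

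**Figure D2:**
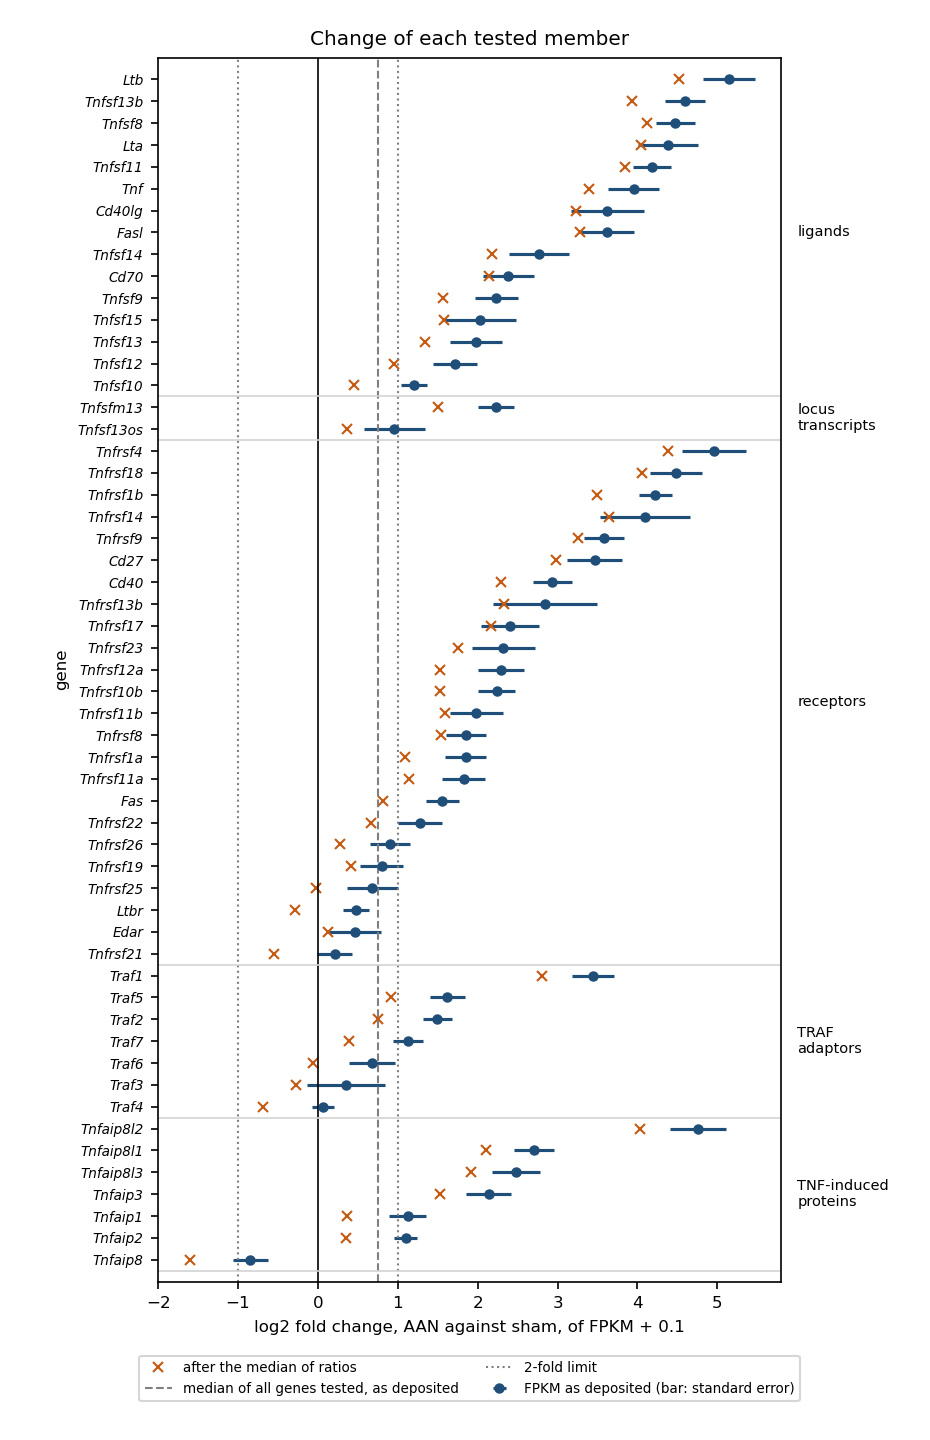
Log2 fold change (AAN against sham, of FPKM + 0.1) of the 55 tested members by role, with the standard error as a bar, as deposited (circles) and after the median of ratios (crosses); the dashed line is the median of all genes tested, 0.75, and the dotted lines the 2-fold limit. All 15 ligands lie right of the limit as deposited, the 3 TRAF adaptors Traf3, Traf4 and Traf6 lie left of the dashed line, and Tnfaip8 is the only circle below 0, while the crosses of Traf3, Traf4, Traf6, Ltbr, Tnfrsf21 and Tnfrsf25 also lie below 0.

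Among the 24 receptors tested, 18 rose (all genes 35.8%) and 16 after the median of ratios (all genes 19%), with a median log2 fold change of 2.11. Of these, 7 passed the filter although their sham mean was under it, and 5 of the 7 rose. Tnfrsf12a (chr17:23675445-23677468, minus strand) encodes Fn14, the receptor of TWEAK. It measured 18.6, 24.3, 25.0 and 21.2 FPKM in sham mice, where it was the third of the members by mean, and 52.6 to 156 FPKM (median 135) in AAN mice, where it was the most abundant. The log2 change was 2.29 (SE 0.29, adjusted p = 3.87e-05), and even the lowest AAN mouse, B614, was above every sham mouse. Tnfrsf1a, the TNF receptor with a death domain, was at 15.1, 6.67, 8.88 and 13.4 FPKM in sham mice and 27.4 to 49.3 FPKM (median 38.5) in AAN mice. Tnfrsf1b (chr4:145213463-145246870, minus strand), the TNF receptor without a death domain, was far lower in sham mice, at 1.33, 0.870, 0.775 and 0.666 FPKM, and reached 13.8 to 23.7 FPKM (median 18.8) in AAN mice. The 2 TNF receptors thus rose by 1.85 (SE 0.26) and 4.22 (SE 0.21) on the log2 scale, each without overlap between the groups. Fas, the receptor of Fas ligand, measured 2.63, 2.56, 3.10 and 3.94 FPKM in sham mice and 6.80 to 11.4 FPKM (median 9.59) in AAN mice. Fas changed by 1.56 (SE 0.21) as deposited and by 0.81 after the median of ratios, where it no longer passed the limit of 1. Tnfrsf10b, the mouse TRAIL receptor, was at 0.846, 0.637, 0.862 and 0.765 FPKM in sham mice and 2.67 to 5.97 FPKM (median 4.24) in AAN mice, and rose by 2.24 (SE 0.23).

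Several receptors best known from lymphocytes rose as well. Tnfrsf4 (chr4:156013843-156016612, plus strand), or OX40, a costimulatory receptor of activated T cells, was at 0.0562, 0.0621, 0.329 and 0.209 FPKM in sham mice and 2.98 to 11.6 FPKM (median 7.67) in AAN mice. Its neighbour on chromosome 4, Tnfrsf18, or GITR, which is carried by regulatory T cells, was at 0.133, 0, 0.0788 and 0.0472 FPKM and at 1.67 to 5.00 FPKM (median 3.70). Their log2 changes were 4.95 (SE 0.40) and 4.49 (SE 0.32), and the same mice were lowest (B614) and highest (B639) for both. Tnfrsf18 overlaps Gm16008 in the annotation. Tnfrsf14, or HVEM, the receptor shared by LIGHT and BTLA, measured 0.527, 0, 0.0747 and 0.0746 FPKM in sham mice and 1.23 to 7.52 FPKM (median 4.08) in AAN mice. Of the genes named here it varied widely among AAN mice, with a standard deviation that was 57.5% of the mean, and it rose by 4.10 (SE 0.56). Cd27, the receptor of CD70, was at 0.149, 0.0149, 0.173 and 0.0862 FPKM in sham mice and 0.935 to 3.15 FPKM (median 2.11) in AAN mice. Cd40, which licenses antigen-presenting cells and B cells, was at 0.248, 0.262, 0.209 and 0.307 FPKM and at 1.59 to 4.09 FPKM (median 2.69). Cd27 changed by 3.47 (SE 0.34) and Cd40 by 2.93 (SE 0.25), each with all AAN mice above all sham mice. Cd27 overlaps Vamp1.

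For the RANKL axis, the receptor Tnfrsf11a, or RANK, was at 0.757, 0.443, 0.660 and 0.320 FPKM in sham mice and 1.3 to 2.70 FPKM (median 2.39) in AAN mice. The decoy receptor Tnfrsf11b, or osteoprotegerin, was at 0, 0.0672, 0 and 0.151 FPKM and at 0.294 to 0.832 FPKM (median 0.465). Both rose, by 1.83 (SE 0.27) for Tnfrsf11a and 1.98 (SE 0.33) for Tnfrsf11b. The value for Tnfrsf11b rests on the pseudocount: it was 0.49, under the limit, with a pseudocount of 1 and 3.82 with 0.01. The receptors of BAFF differed in level. Tnfrsf13b, or TACI, was at 0.0121, 0.187, 0.0642 and 0.141 FPKM in sham mice and 0.205 to 3.34 FPKM (median 1.74) in AAN mice, and its lowest AAN mouse, B639, was barely above the highest sham mouse. It rose by 2.85 (SE 0.65). Tnfrsf13c, the BAFF receptor proper, was listed at 0 in all sham mice and stayed at 0.0494 to 0.227 FPKM (median 0.130) in AAN mice. Tnfrsf17, the plasma cell receptor BCMA, was also listed at 0 in all sham mice, and at 0.150 to 0.933 FPKM (median 0.418) in AAN mice, which is 2 to 12 fragments. Set against the 3 fragments that a 0 allows, its rise was at least 0.72 on the log2(FPKM + 0.1) scale. With Cd70 and Tnfrsf17 at these bounds, the median of the members was 2.04 and that of the receptors 1.92.

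Further partners of the named ligands and receptors were Tnfrsf8, or CD30, at 0, 0.0333, 0 and 0.0213 FPKM in sham mice and 0.179 to 0.420 FPKM (median 0.303) in AAN mice, and Tnfrsf9, or 4-1BB, at 0, 0, 0.0142 and 0.0284 FPKM and at 0.760 to 1.90 FPKM (median 1.21). Both separated the groups without overlap, and with a pseudocount of 1 the change of Tnfrsf8 fell to 0.37 while that of Tnfrsf9 was 1.15. Tnfrsf9 overlaps Camta1 in the annotation. Tnfrsf23 (2.32, SE 0.39) and Tnfrsf22 (1.28, SE 0.27), decoy TRAIL receptors of the mouse, are neighbouring near-copies on chromosome 7 together with Tnfrsf26 (0.91, SE 0.25), and their reads may be shared. After the median of ratios Tnfrsf22 changed by 0.67 and lost its call.

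The receptors that did not pass both limits included those with the highest sham means. Tnfrsf21, a receptor with a death domain, was the most abundant member in sham mice at 36.8 ± 3.54 FPKM (SD, n = 4) and measured 43.8 ± 12.1 FPKM (SD, n = 6) in AAN mice. Its log2 change was 0.21 (SE 0.21) as deposited and -0.55 after the median of ratios. Ltbr, the lymphotoxin receptor, was at 32.5, 24.9, 26.7 and 31.9 FPKM in sham mice and 32.8 to 48.6 FPKM (median 40.6) in AAN mice. Every AAN mouse was above every sham mouse for Ltbr, by a narrow margin, and the change of 0.47 (SE 0.16, adjusted p = 0.0219) turned to -0.29 after the median of ratios. Among the less abundant receptors below the limits, Tnfrsf25, the receptor of the TL1A ligand, changed by 0.68, Edar by 0.46 and Tnfrsf19 by 0.80, all at means under 2 FPKM in both groups.

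Ligands and receptors were then set against each other within each mouse, since a difference of 2 genes in the same mouse depends little on the scaling of that mouse where both genes are well above the pseudocount. The 4 differences were of log2(FPKM + 0.1) and were tested with exact two-sided permutation over the 210 splits of the mice, whose smallest p is 0.00952, with Benjamini-Hochberg adjustment over the 4. Tnfrsf1b was 0.0498 to 0.130 of the level of Tnfrsf1a in sham mice and 0.376 to 0.569 of it in AAN mice. The difference between the 2 TNF receptors therefore shifted by 2.37 (SE 0.28, exact permutation p = 0.00952, adjusted 0.0127) toward Tnfrsf1b, and the ratios of the groups did not overlap. For 2 of the pairs the sham side is set mostly by the pseudocount, so their shifts are given without a p. Tnfsf11 and its decoy Tnfrsf11b held 1 and 10 fragments in the 4 sham mice together, and their difference shifted by 2.20 toward Tnfsf11, or by 1.01 with a pseudocount of 1 and 3.23 with 0.01. Tnfrsf13c was listed at 0 in sham mice, and the shift toward Tnfsf13b was 3.45, or 1.3 with a pseudocount of 0.01. Tnfrsf12a was 2.04 to 3.18 times the level of Tnfsf12 in sham mice and 2.13 to 4.78 times in AAN mice, ranges that overlap. That shift was 0.57 (SE 0.22, exact permutation p = 0.0381, adjusted 0.0381). It kept its direction with each mouse left out, at 0.48 to 0.72, and in the 8 mice with B tags, at 0.42 (exact permutation p = 0.143). Without B636, H249, A483, B614, B642 or B666, where fewer splits are possible, the exact permutation p was 0.0635 to 0.0952.

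**Figure D3:**
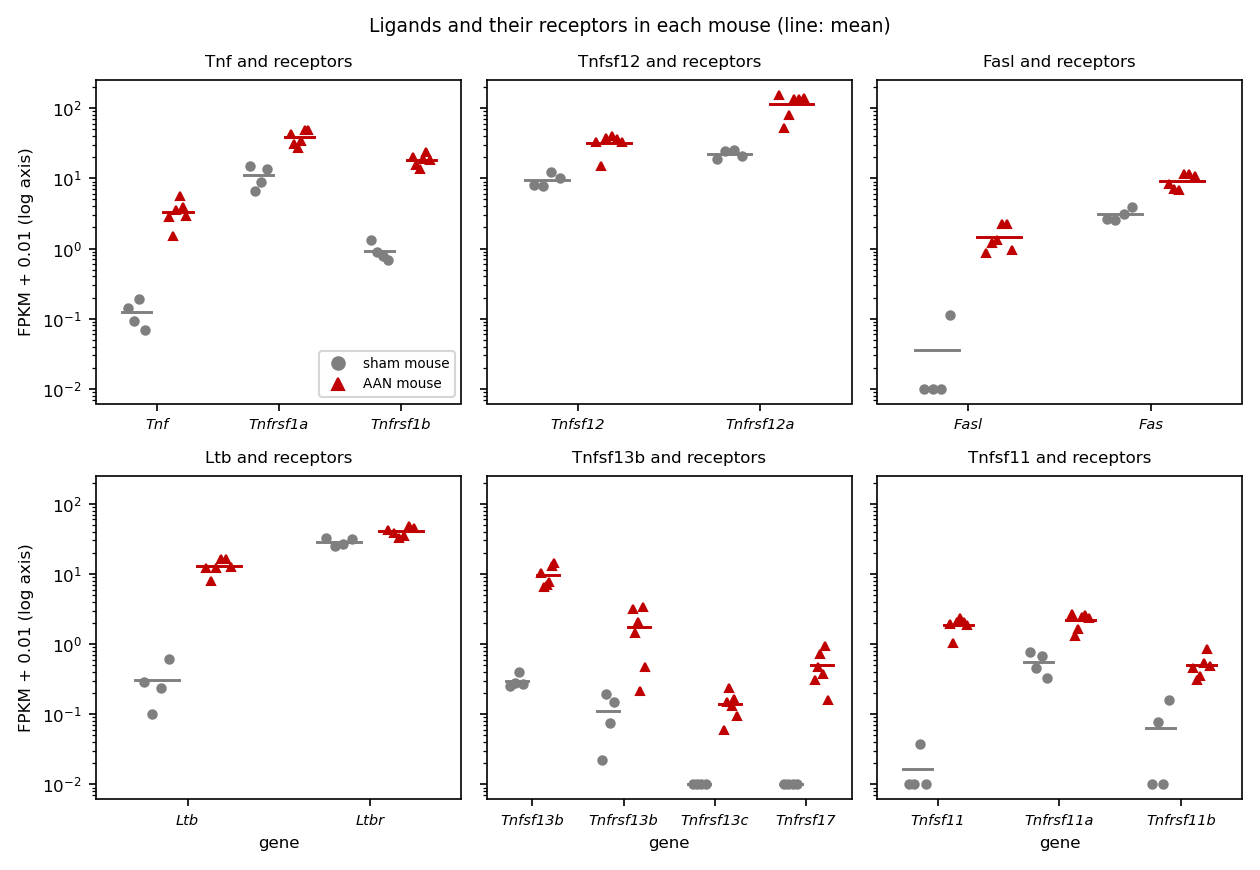
Level of 6 ligands and their receptors in each mouse, as FPKM + 0.01 on a log axis, with circles for the 4 sham mice, triangles for the 6 AAN mice and a line at each group mean; values listed at 0 sit at 0.01. The receptors Ltbr and Tnfrsf1a were abundant in sham mice while Ltb and Tnf were not, and Tnfrsf1b of the AAN mice (13.8 to 23.7 FPKM) approached the level of Tnfrsf1a.

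The TRAF adaptors had a median log2 fold change of 1.13 over 7 genes, of which 4 rose as deposited (all genes 35.8%) and 1 after the median of ratios (all genes 19%). Traf1 (chr2:34941750-34961772, minus strand), an adaptor that is itself induced by NF-kB and binds TRAF2, was at 0.222, 0.198, 0.314 and 0.204 FPKM in sham mice and 2.41 to 5.10 FPKM (median 3.60) in AAN mice. Its log2 change of 3.44 (SE 0.26, adjusted p = 7.2e-07) was the only one among the TRAF genes to pass after the median of ratios, at 2.81. Traf2, which recruits the cIAP ubiquitin ligases, was close to constant in sham mice (2.89, 2.94, 3.01 and 2.89 FPKM) and reached 5.68 to 10.9 FPKM (median 8.87) in AAN mice. Traf5, a partner of TRAF2 in T and B cells, measured 0.929, 0.548, 1.13 and 1.09 FPKM and 2.12 to 3.49 FPKM (median 3.04). Traf7, a more distant relative that acts on MEKK kinases, measured 3.0, 2.08, 1.89 and 2.66 FPKM and 3.88 to 6.22 FPKM (median 5.67). None of these 3 genes overlapped between the groups as deposited, with log2 changes of 1.5 (SE 0.18), 1.62 (SE 0.22) and 1.13 (SE 0.19). After the median of ratios they were 0.75, 0.91 and 0.39, all under the limit. Traf7 overlaps Caskin1 and Rab26.

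Traf3, Traf4 and Traf6 did not pass both limits, and each had overlapping groups. Traf3, the brake on the noncanonical NF-kB pathway, averaged 0.489 ± 0.270 FPKM (SD, n = 4) in sham mice and 0.664 ± 0.430 FPKM (SD, n = 6) in AAN mice, with H249 the lowest sham mouse at 0.108 FPKM. Traf4 was the most abundant TRAF gene in both groups, at 16 ± 1.08 FPKM (SD, n = 4) and 16.8 ± 1.96 FPKM (SD, n = 6). Traf6, which also serves Toll-like and interleukin receptors, averaged 2.31 ± 1.28 FPKM (SD, n = 4) and 3.51 ± 0.882 FPKM (SD, n = 6). Their log2 changes were 0.35 (SE 0.49), 0.07 (SE 0.14) and 0.68 (SE 0.29) as deposited, and -0.27, -0.69 and -0.058 after the median of ratios, so no direction is given for them.

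Of the 7 tested genes named as TNF-induced proteins, 6 rose as deposited (all genes 35.8%), and after the median of ratios 4 rose and 1 fell (all genes 19% and 10.5%). Tnfaip8l2 (chr3:95139521-95142360, minus strand), or TIPE2, a regulator of immune cell activation, was at 1.07, 0.562, 1.35 and 0.757 FPKM in sham mice and 10.8 to 42.2 FPKM (median 28.9) in AAN mice. In fragments this was 10 to 25 in the sham mice and 190 to 749 in the AAN mice, with B614 the lowest. Its log2 change of 4.75 (SE 0.35, adjusted p = 5.86e-07) set it apart from Tnfaip1 and Tnfaip2. Tnfaip1, an adaptor of a cullin ubiquitin ligase, measured 16.5, 7.41, 10.5 and 11.8 FPKM in sham mice and 16.8 to 28.8 FPKM (median 26.5) in AAN mice, and Tnfaip2 measured 5.56, 4.13, 5.05 and 6.15 FPKM and 10.1 to 11.9 FPKM (median 11.3). Both rose just past the limit (1.12, SE 0.23, and 1.10, SE 0.14), lost their calls without the sham mouse B634 (0.93 and 0.99), and changed by 0.36 and 0.35 after the median of ratios. Tnfaip3, which encodes A20, the deubiquitinase that ends NF-kB signalling, rose by 2.14 (SE 0.28), with 0.247 ± 0.113 FPKM (SD, n = 4) in sham mice against 1.43 ± 0.454 FPKM (SD, n = 6) in AAN mice. The relatives Tnfaip8l1 and Tnfaip8l3 changed by 2.70 (SE 0.25) and 2.48 (SE 0.30). Tnfaip6 stayed under the filter, at up to 0.0355 FPKM in sham mice and 0 to 0.358 FPKM in AAN mice.

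Tnfaip8, named here after its values were seen, was the only member with a change below 0 as deposited. It measured 13.5, 13.5, 13.1 and 11.6 FPKM in sham mice and 5.10 to 12.2 FPKM (median 6.94) in AAN mice. The highest AAN mouse, B614, was within the sham range and the other 5 were below it. The log2 change was -0.84 (SE 0.22, adjusted p = 0.00579), short of the 2-fold limit as deposited and past it after the median of ratios (-1.60) and quantile normalization (-1.42). Tnfaip8 overlaps C030005K06Rik.

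The AAN mice were not alike. B614 was the lowest AAN mouse in 27 of the 44 members that rose (61.4%, against 51% of all genes that rose), and B642 was the highest in 20 (45.5%, against 22.3%). B642 also had the lowest share of mitochondrial FPKM, 21.4%, and the part of that share in this order was not tested. The same mouse B614 had the lowest leukocyte sum of its group, 131 FPKM, and the highest proximal tubule sum, 2031 FPKM, which lay inside the sham range. Without B614, 46 members rose (37.4% of all genes), with Tnfrsf26 and Tnfsf13os added, and without the sham mouse B634, whose share of mitochondrial FPKM was the highest at 61.4%, 42 rose (31.8% of all genes). The widest spread among the AAN mice was in Tnfrsf13b, whose standard deviation was 74.3% of its mean, Traf3 (64.8%) and Tnfsf15 (60.8%), among the tested members. The smallest was in Tnfaip2, at 5.78%.

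Position in the genome was a further feature that the choice of genes had not used. Members lying within 100 kb of another formed 9 groups of 2 to 4 genes, with 24 of the 60 members. The calls here are as deposited, where 35.8% of all genes rose. On chromosome 17 Tnfsf9, Cd70 and Tnfsf14 all rose, as did Ltb, Tnf and Lta. On chromosome 4 the pairs Tnfrsf4 and Tnfrsf18, Tnfrsf1b and Tnfrsf8, and Tnfsf15 and Tnfsf8 rose. In the group of Cd27, Ltbr and Tnfrsf1a on chromosome 6, Ltbr did not pass both limits while its neighbours did, and on chromosome 1 both Tnfsf4 and Tnfsf18 were under the filter. On chromosome 11 Tnfsf12, Tnfsf13 and Tnfsfm13 rose and Tnfsf13os did not pass both limits, and on chromosome 7 Tnfrsf22 and Tnfrsf23 rose and Tnfrsf26 did not.

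The genes downstream of the receptors were counted from lists of the pathway, to be read against the 35.8% of all genes that rose as deposited and the 19% after the median of ratios. Of 11 NF-kB subunits and inhibitors, 10 rose (9 after the median of ratios), with a median log2 fold change of 3.02. The largest rises were those of Relb (sham 0.675 ± 0.277 FPKM, SD, n = 4, AAN 11.7 ± 3.02 FPKM, SD, n = 6), the subunit of the noncanonical pathway, and of the inhibitors Nfkbie (3.71, SE 0.24) and Nfkbid (3.62, SE 0.31). Nfkbib, at 0.68, did not pass 2-fold. Relb itself changed by 3.97 (SE 0.31) on the log2 scale. Of 19 tested targets of NF-kB, 16 rose under both scalings, with a median of 3.30. They were led by Lcn2 (6.87, SE 0.44), which encodes lipocalin, Ccl2 (6.38, SE 0.39), the monocyte chemokine, and Bcl2a1b (5.93, SE 0.36), a survival factor of the BCL2 family. Csf2, counted among the 16, was listed at 0 in every sham mouse and also in the AAN mouse B614, so the groups overlapped. Lcn2 and Vcam1 stand in the list of injured tubule markers as well. Sod2 was at 81.9 ± 7.38 FPKM (SD, n = 4) in sham mice and 43.6 ± 9.45 FPKM (SD, n = 6) in AAN mice, and changed by -0.93 on the log2 scale, and by -1.69 after the median of ratios, where it passed the limit.

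Among 16 death and ubiquitin adaptors, 8 rose as deposited (all genes 35.8%), with a median of 1.01, and after the median of ratios 4 rose (all genes 19%) and Bid fell. Ripk3, the kinase of necroptosis, averaged 0.220 ± 0.116 FPKM (SD, n = 4) and 7.60 ± 2.27 FPKM (SD, n = 6), with a log2 change of 4.61 (SE 0.35), and its substrate Mlkl changed by 3.15 (SE 0.25). Birc3, which encodes a cIAP ubiquitin ligase, changed by 3.76 (SE 0.19). Ripk1 (0.59), Fadd (0.62) and Tradd (1.0), the adaptors that bind the death domain, did not pass both limits. Of 17 kinases and their cofactors on the way to NF-kB and JNK, 6 rose (2 after the median of ratios), a share that was near the 35.8% of all genes as deposited and below their 19% after the median of ratios. Their median of 0.80 was close to that of all genes. The largest changes were those of Ikbke (3.44, SE 0.25) and Map3k8 (2.78, SE 0.28), and then of the TRAF-binding protein Tank (1.58, SE 0.18), which was at 0.86 after the median of ratios and under the limit there.

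The list for the cutting of ligands and receptors from the cell surface held proteases, rhomboid-like partners and an inhibitor. Of its 7 genes, 4 rose (3 after the median of ratios) and 1, the inhibitor Timp3, fell. Adam8, a leukocyte protease, changed by 4.58 (SE 0.28), Adam10 by 2.82 (SE 0.68) and Rhbdf2, the partner of the TNF-converting enzyme, by 2.22 (SE 0.23). Adam17, the TNF-converting enzyme itself, changed by 1.57 (SE 0.18) as deposited and by 0.83 after the median of ratios. Timp3, the inhibitor of that enzyme, fell, at 192 ± 57.0 FPKM (SD, n = 4) for sham against 82.4 ± 34.6 FPKM (SD, n = 6) for AAN, with a log2 change of -1.26 (SE 0.28, adjusted p = 0.0021), although the groups overlapped. The 4 relatives of the superfamily that carry other symbols all rose under both scalings, with a median of 2.86: Relt (4.01, SE 0.32), the ectodysplasin receptor Eda2r (3.70, SE 0.27), the adaptor Edaradd (2.02, SE 0.23) and Ngfr (1.93, SE 0.38). Most of the immune, injured tubule and fibroblast markers given above rose in the same AAN mice. Their part in the changes of these lists was not tested.

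**Figure D4:**
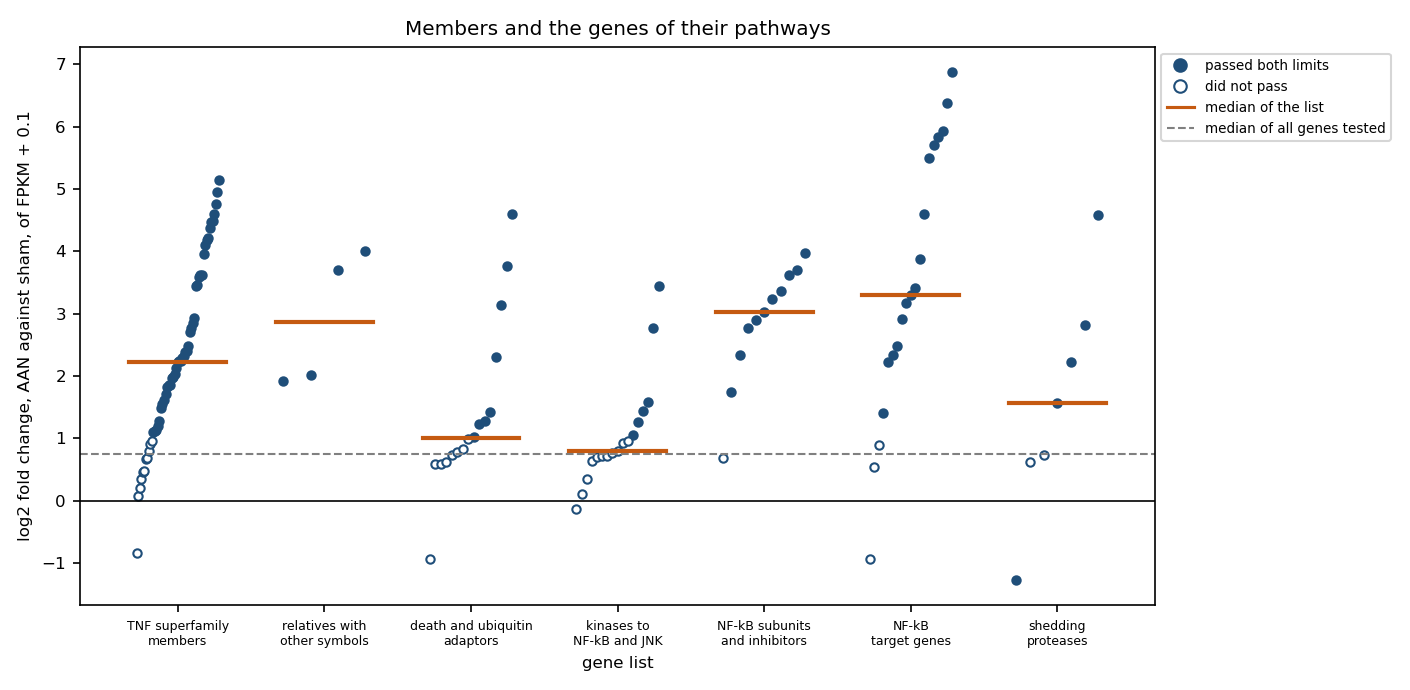
Log2 fold change (AAN against sham, of FPKM + 0.1) of every tested gene of the members and of the 6 pathway lists, 1 point per gene in order of size, filled where both limits were passed; orange lines are list medians and the dashed line is the median of all genes tested. The lists of NF-kB subunits and of NF-kB targets have medians of 3.02 and 3.30, above the 2.23 of the members, while the kinases lie near the dashed line at 0.80.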

How the data were processed

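Kidney cortex RNA was measured by RNA-seq in 4 sham and 6 AAN mice, 1 library each. Per the labels and methods, the authors prepared paired-end TruSeq libraries, mapped reads to GRCm38 with HISAT2, and deposited FPKM values from StringTie, after tests with edgeR that are not used here. FPKM are not counts, so limma 3.58.1 (R 4.3.3; two-sided, trend and robust) was run on log2(FPKM + 0.1) of the 17129 genes that averaged at least 0.1 FPKM, with Benjamini-Hochberg adjustment over all of them. A call needed an adjusted p of at most 0.05 and at least 2-fold; a fold change on this scale understates low genes. No batch is labelled. P-values measure the spread between these mice.

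Symbols came from GENCODE M21 for 21665 of the 21792 identifiers. Depth was recovered from genes with 1 transcript, where 93.9 to 96.9% of values under 0.3 FPKM were whole fragments within 0.05; limits cover counting error only. For genes with several transcripts fragments were not recovered. Scripts were tested on simulated data.

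The members and lists were chosen with earlier results of these data known. Members were named where they passed both limits and averaged at least 1 FPKM in the higher group (at most 30, taken by level). Ligand or receptor partners were named with them. For these genes values are given for each sham mouse, and as a range and median for the AAN mice. In each pathway list the 3 largest rises and falls were named, and other genes named beside them were chosen after their values were seen. Within-mouse differences were tested in Python 3.11.15 with scipy 1.17.1. Other scalings, pseudocounts, filters and limits, mice with B tags alone and each mouse left out were tried as alternatives.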

Additional observations from a re-analysis of the deposited data

Results flagged for a closer look

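Within each group, members were examined for a mouse far from the rest of its group, by the gap to its nearest neighbour over the range. Of 115 groups of values, 10 held such a mouse, and chance alone gives about 1 in 20, or 5.75. Where all other mice of a group were listed at 0, any value above 0 was flagged, so this rate does not hold there. Among AAN mice, B614 was low in Tnfsf12 (14.8 FPKM, the others 32.6 to 40.6), in Tnfsf11 (1.03, the others 1.89 to 2.34) and in Tnfrsf25 (0.761, the others 1.51 to 1.87), 3 of the 10. B642 was high in Tnfsf14 (4.09 FPKM, the others 1.3 to 2.17), and B666 in Tnfaip6 (0.358, the others 0 to 0.131), which is 10 fragments against at most 3.

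Among sham mice, B607 was high in Cd40lg (0.365 FPKM, the others 0 to 0.0486) and in Tnfrsf14 (0.527, the others 0 to 0.0747). H249 was above 0 in Fasl (0.104 FPKM) and Lta (0.0439 FPKM), and B636 in Tnfsf11 (0.0272 FPKM), where the other 3 sham mice were listed at 0. For Lta and Tnfsf11 that value is 1 fragment.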

How the results depend on the processing

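As deposited, 6126 genes rose and 588 fell. The number that rose was 2909 with a pseudocount of 1, 4025 among genes averaging 1 FPKM or more, 9482 with no fold limit, 3261 after the median of ratios and, with quantile normalization, 2546, while the number that fell was 1801 (median of ratios), 1992 (quantile normalization) and 1027 (no fold limit). Leaving out each mouse gave 5488 to 6684 genes higher and 524 to 703 lower, and 42 to 46 members higher and 0 lower. The count of members that rose, 44, ran from 31 (quantile normalization) to 48 (no fold limit), and 1 member, Tnfaip8, fell under both scalings and with no fold limit.

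Directions turned in 10 members, none of which passed both limits as deposited. After the median of ratios these were Traf3 (-0.27), Traf4 (-0.69), Traf6 (-0.058), Ltbr (-0.29), Tnfrsf21 (-0.55) and Tnfrsf25 (-0.019). With quantile normalization they were Traf3 (-0.84), Traf4 (-0.41), Traf6 (-0.24), Tnfrsf21 (-0.058), Tnfrsf25 (-0.47), Tnfsf13os (-0.27), Edar (-0.57), Tnfrsf19 (-0.26) and Tnfrsf26 (-0.33). Traf3 ran from -0.094 (without H249) to 0.58 with each mouse left out, and was -0.20 in mice with B tags alone. The cause was not tested. The difference of Tnfrsf12a and Tnfsf12 ran from 0.48 to 0.72 with each mouse left out and was 0.42 in mice with B tags.

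With a pseudocount of 1, Tnfaip2, Tnfaip3, Traf7, Cd70, Tnfsf13, Tnfsf15, Tnfrsf8, Tnfrsf11b, Tnfrsf17, Tnfrsf22 and Tnfrsf23 lost their calls. The total without mitochondrial genes was an alternative chosen after seeing the data. No paired analysis was possible because the groups are different mice and the labels tie no sham mouse to an AAN mouse.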
